A study of Homo sapiens with 4 samples.

Results

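The MYC and MAX network was followed in K562 cells during erythroid differentiation with hemin. It was taken as 10 listed genes, MYC, MYCN, MYCL, MAX, MXD1, MXI1, MXD3, MXD4, MNT and MLX, each represented by the transcript probe set that the platform annotation names for it (the one with the highest mean where there were several). Of the 10 genes, 9 had such a probe set, among 17687 named genes in all. MXD4 had none and is not analysed here.

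K562 is a human line from chronic myeloid leukemia that carries the BCR-ABL1 fusion and makes hemoglobin when it is exposed to hemin, an oxidized form of heme. Its RNA was hybridized to 4 Human Clariom S arrays, 2 from cells without differentiation (0 h, no hemin) and 2 from cells after 24 h in 50 µM hemin, labelled as biological replicates 1 and 2 of each time. All cells were grown in RPMI medium with fetal calf serum, and by the methods hemin was given in the presence of DMSO. Cells cultured for the same 24 h in the absence of hemin were not among the samples, so the agent and the time in culture cannot be told apart, and whether the replicates were grown separately is not stated, so a p-value here covers array-to-array spread that may be technical.

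The proteins of this network are basic helix-loop-helix leucine zipper factors that bind DNA as pairs. MYC, MYCN and MYCL pair with MAX at the E-box, spelled CACGTG, and raise transcription of genes for growth, ribosome production and nucleotide synthesis. MXD1, MXI1, MXD3, MXD4 and MNT compete for MAX, recruit the SIN3 and histone deacetylase corepressor and lower transcription at the same sites, and MLX links the network to the glucose sensors MondoA and ChREBP. Blood cells that leave the cell cycle are known for replacing MYC-MAX pairs with MXD1-MAX pairs.

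Values are log2 expression values, as normalized by the authors, and a difference of 1 is a 2-fold change. A dim line at 5.70 was set as the 95th percentile of the mean of 348 olfactory receptor genes, and a negative control level at 7.56, as the 95th percentile of the means of 612 negative control probe sets. Of the 9 measured members, 7 lay above the dim line in all 4 arrays and 5, MYC, MAX, MXD1, MXI1 and MLX, lay above the negative control level in all 4. Levels of different probe sets were not compared, since each probe set has its own response. Where 2 genes are set against each other below, only the shift between the times is read. The times were compared with limma over all 20893 transcript probe sets, with calls made at a Benjamini-Hochberg adjusted p under 0.05.

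The arrays were similar as a whole, with Pearson r between 0.972 and 0.988 over the probe sets of each pair of arrays (probe sets of an array are not independent). The erythroid identity of the cells was visible at both times: all 8 measured of 12 markers of K562 erythroid cells (the globin gene HBE1 is one) lay above the dim line on every array, and their mean value was 13.11 to 13.41 at 0 h and 13.16 to 13.24 at 24 h. This mean covers changes in both directions, with a fitted change above 0 for 4 of the 8 and below 0 for 4. HBE1 was higher at 24 h (log2 fold change 0.91, limma adjusted p 0.25). GATA1, named after its values were seen, was lower (log2 fold change -1.04, limma adjusted p 0.18). Of 10 measured markers of other blood cells, 3 lay above the line in all 4 arrays, among them LYZ, and 3 in none, the B cell, neutrophil and platelet genes MS4A1, MPO and ITGB3. The mean of these 10 was 6.28 to 6.38 at 0 h and 5.93 to 6.03 at 24 h. Of 10 markers of fibroblasts, epithelium and endothelium, 3 lay above it in all 4 arrays, the keratin gene KRT8, the epithelial gene EPCAM and the collagen gene COL1A2, with a mean over the 10 of 7.18 to 7.32 at 0 h and 6.70 to 7.01 at 24 h. The part of these markers in the values below was not tested, and in RNA of whole cultures fewer cells of a type and less RNA per cell cannot be told apart.

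No member of the network passed the test between 0 h and 24 h: 0 of 9 were called higher and 0 of 9 lower by limma, where 0.823% of all probe sets were called higher and 0.12% lower. The unadjusted p was under 0.05 for MXD1, which was higher, and for no other member, where 6.28% of all probe sets were higher and 6.62% lower by that measure. Both arrays at 24 h lay above both at 0 h for 1 member, against 18.8% of all probe sets, and below them for 2, MAX and MLX, against 24.9%. The fitted change was above 0 for 3 members, against 44.9% of all probe sets, and below 0 for 6, against 55.1%. The median log2 fold change of the 9 members was -0.23, and that of all probe sets was -0.06. The standard errors (SE) of these changes ran from 0.31 to 0.41, so that for 8 of the 9 the 95% interval of the change included 0.

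**Figure D1:**
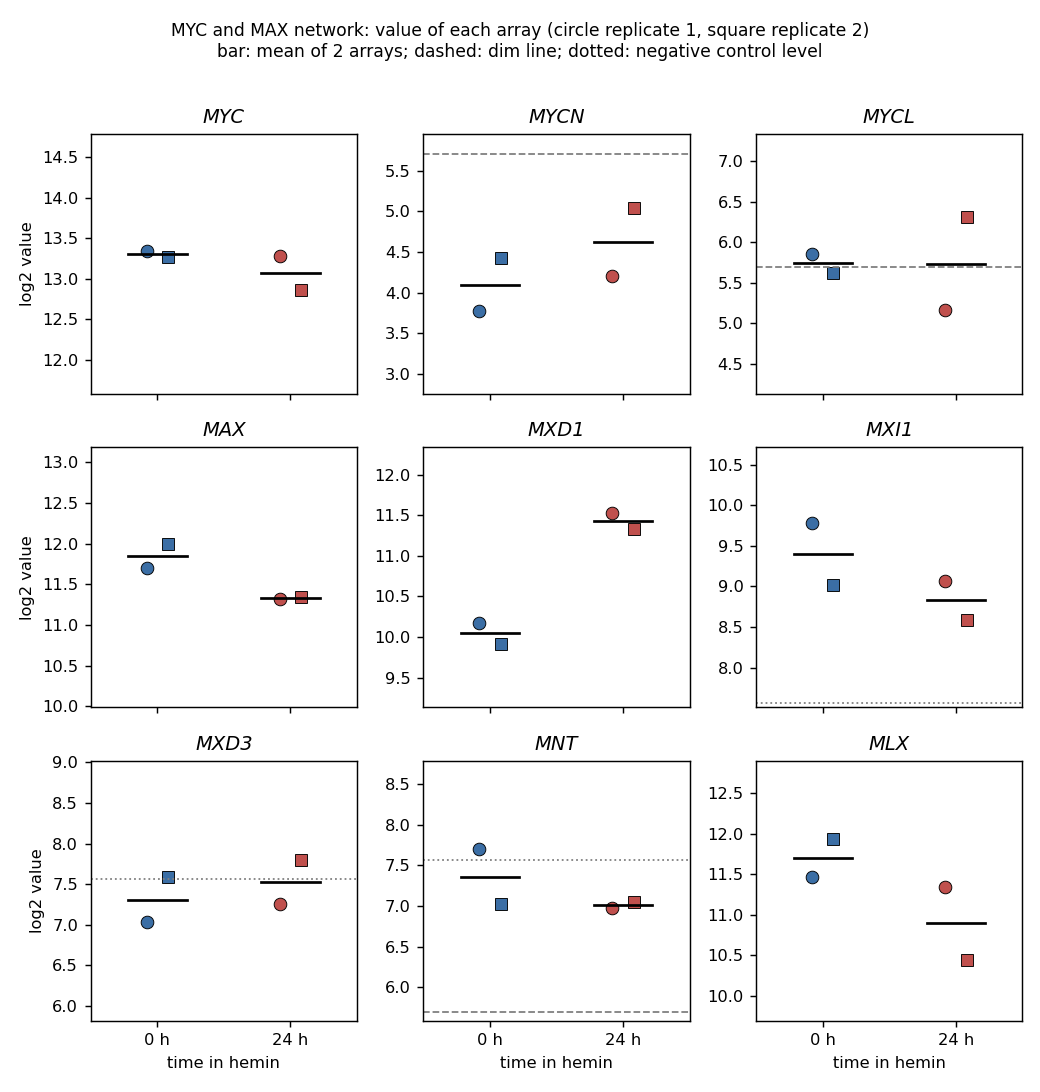
Log2 value of each array for the 9 measured members at 0 h and 24 h of hemin. Circles are replicate 1, squares replicate 2, and the bar is the mean of 2 arrays, and each panel spans the same range of log2 values. The dashed line is the dim line at 5.70 and the dotted line the negative control level at 7.56. The 2 times stand apart for MXD1, which was higher at 24 h, and for MAX and MLX, which were lower.

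MYC, the oncogene at the centre of the network, was measured at log2 values of 13.34 and 13.27 at 0 h and 13.28 and 12.87 at 24 h. The array of replicate 1 at 24 h lay between the arrays at 0 h and that of replicate 2 lay below them, so the times overlapped. The mean went from 13.30 ± 0.05 (SD, n = 2 arrays) to 13.07 ± 0.29 (SD, n = 2), a log2 fold change of -0.23 (SE 0.32, limma adjusted p 0.81). The 95% interval of that change ran from -0.95 to 0.49, which reaches from a 1.94-fold lower to a 1.40-fold higher level. The change was -0.03 without replicate 2 of 24 h and -0.44 without replicate 1 of 24 h. MYC transcript was thus bright at both times, and with 4 arrays a change within these bounds cannot be told from none. The bounds are not a limit of detection.

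MYCN, the family member known from neuroblastoma, was under the dim line on each of the 4 arrays, at 3.77 and 4.42 at 0 h and 4.20 and 5.04 at 24 h, and has no measured level here. MYCL, known from lung cancer, straddled the line at both times, with 5.85 and 5.62 at 0 h and 5.16 and 6.31 at 24 h. Its replicates at 24 h differed by more than those at 0 h and enclosed them, and its fitted log2 fold change was -0.00 (SE 0.41, limma adjusted p 1.00). Of the 3 MYC family genes, MYC was the only one above the dim line in all 4 arrays.

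MAX, the shared partner of the MYC and MXD proteins in binding DNA, was measured at 11.70 and 12.00 at 0 h and at 11.32 and 11.34 at 24 h. Both arrays at 24 h lay below both at 0 h. The means were 11.85 ± 0.21 (SD, n = 2) and 11.33 ± 0.02 (SD, n = 2), a log2 fold change of -0.52 with a 95% interval from -1.22 to 0.19 (SE 0.31, limma adjusted p 0.54). The difference did not pass the test, and without each array in turn it was between -0.67 and -0.37.

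MXD1, which encodes the MAX partner that represses MYC sites in differentiating cells, had the largest difference of the network. Its log2 values were 10.18 and 9.91 at 0 h and 11.53 and 11.33 at 24 h, so both arrays in hemin lay above both arrays before it, with more than 1 log2 unit between the nearest pair. The means were 10.05 ± 0.19 (SD, n = 2) and 11.43 ± 0.14 (SD, n = 2), a log2 fold change of 1.38, or 2.61-fold, with a 95% interval from 0.67 to 2.09 (limma, SE 0.32, unadjusted p = 0.0016, adjusted p = 0.086). This was a larger log2 fold change than in 98.1% of all probe sets, and the call was missed at the threshold of 0.05. With a trend and robust variance model it passed (adjusted p = 0.027), and a filter at the negative control level, chosen after seeing the data, gave the same p to this precision. Without each array in turn the log2 fold change stayed between 1.25 and 1.51, with adjusted p between 0.12 and 0.33.

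Set against MYC within each array, MXD1 shifted by 1.62 on the log2 scale between the times, and set against MAX by 1.90. The difference MXD1 minus MYC was -3.16 and -3.35 at 0 h and -1.75 and -1.54 at 24 h, and only the shift of this difference, not its level, compares the genes. The same difference against MAX was -1.52 and -2.08 at 0 h and 0.21 and -0.01 at 24 h. The change of MXD1 itself makes up most of both shifts, so they are not separate support for it. In both comparisons the 2 times did not overlap, as for MXD1 alone. An exact two-sided permutation test gave p = 0.333 in each (0.333 adjusted over the 2 comparisons), which is the smallest p that 2 arrays against 2 allow.

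The promoters of MXD1 and MLX are shown because these members had the largest differences in the 2 directions. They were taken from NCBI RefSeq (GRCh38.p14), from 250 bases before to 50 after the annotated start of the gene, on the strand of the gene. Capitals mark an E-box (CACGTG) or the core of the antioxidant response element (TGACNNNGC, on either strand), the site of NRF2 with small MAF proteins. MXD1 lies at chr2:69914859-69915158, plus strand, and MLX at chr17:42566850-42567149, plus strand.
MXD1: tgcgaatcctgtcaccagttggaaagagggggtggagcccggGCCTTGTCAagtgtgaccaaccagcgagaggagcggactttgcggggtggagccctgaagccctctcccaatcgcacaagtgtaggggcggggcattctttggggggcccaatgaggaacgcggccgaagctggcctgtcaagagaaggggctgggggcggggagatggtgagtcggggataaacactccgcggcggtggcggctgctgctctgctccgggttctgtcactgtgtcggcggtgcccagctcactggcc
MLX: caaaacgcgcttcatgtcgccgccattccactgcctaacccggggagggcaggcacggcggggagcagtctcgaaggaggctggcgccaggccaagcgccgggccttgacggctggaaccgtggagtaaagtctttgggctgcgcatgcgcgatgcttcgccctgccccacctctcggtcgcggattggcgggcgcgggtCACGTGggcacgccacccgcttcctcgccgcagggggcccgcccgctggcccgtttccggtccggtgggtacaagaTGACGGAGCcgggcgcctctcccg

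In the MXD1 window the letters of the antioxidant response element stood 208 bases before the start, on the opposite strand, and no E-box was found. The MLX window held both, an E-box 50 bases before the start and the antioxidant response element core 26 bases after it. Such letters are common: of 35116 promoters of the same length, 13.3% held the antioxidant response element core and 7.26% an E-box. Among the members, 9 of 10 had a promoter in the table, 12 promoters in all. MYC was the member without one, so its promoter was not searched. An E-box was found in 3 of the 12, those of MXD4, MNT and MLX, and the antioxidant response element core in 2, those of MXD1 and MLX. The AP-1 letters TGANTCA, in 7.71% of all promoters, were found for MXD3 alone, 79 bases before its start, and the GATA letters AGATAA, in 10.3% (either strand, as for AP-1), in none of the 12.

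Of the other MAX-binding repressors, none had an unadjusted p under 0.05. MXI1, a paralog of MXD1, was measured at 9.78 and 9.02 at 0 h and at 9.06 and 8.59 at 24 h. Its log2 fold change was -0.57, opposite in sign to that of MXD1, with a 95% interval from -1.40 to 0.25 (SE 0.37, limma adjusted p 0.57). The values of the 2 times overlapped, and the log2 fold change was -0.19 without replicate 1 of 0 h and -0.95 without replicate 2 of 0 h.

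MXD3, a repressor known to be made in S phase, was measured at 7.04 and 7.58 at 0 h and at 7.26 and 7.80 at 24 h. MNT, the most widely made of the repressors, was measured at 7.70 and 7.03 at 0 h and at 6.98 and 7.05 at 24 h. Both genes lay above the dim line in all arrays, but not above the negative control level in all of them, and for both the times overlapped. The log2 fold change was 0.22 for MXD3 (95% interval -0.57 to 1.01, limma adjusted p 0.85), and it was -0.35 for MNT (-1.12 to 0.42, limma adjusted p 0.72). The change of MNT was -0.02 without replicate 1 of 0 h and -0.68 without replicate 2 of 0 h.

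MLX, which pairs with MXD1, MXD4, MNT and the Mondo factors in place of MAX, was measured at 11.46 and 11.93 at 0 h and at 11.35 and 10.44 at 24 h. Both arrays at 24 h lay below both at 0 h, though replicate 1 of the 2 times differed by little. The means were 11.70 ± 0.33 (SD, n = 2) and 10.89 ± 0.64 (SD, n = 2), a log2 fold change of -0.80 with a 95% interval from -1.67 to 0.06 (SE 0.39, limma adjusted p 0.42). The size rested on replicate 2 of 24 h, since the log2 fold change was -0.35 without it and -1.26 without replicate 1 of 24 h.

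**Figure D2:**
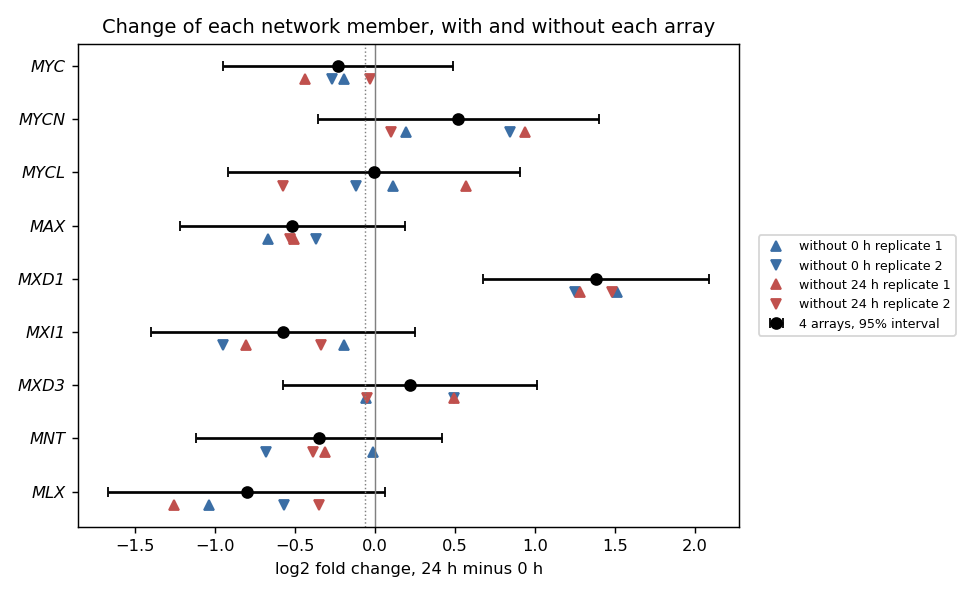
Log2 fold change of each measured member, 24 h minus 0 h. Black points and bars are the estimate from 4 arrays with its 95% interval, not adjusted for the number of genes, and triangles are the estimates without each array in turn. The dotted line is the median of all probe sets, -0.06. The interval of MXD1, from 0.67 to 2.09, lies above 0, and those of the other 8 members include 0.

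The remaining partners of MAX and MLX did not pass the test either. MGA, a large MAX partner of the variant Polycomb complex, and MLXIP and MLXIPL, which encode MondoA and ChREBP, had log2 fold changes of -0.07, 0.16 and -0.15, with limma adjusted p of 0.96, 0.88 and 0.89. MLXIP was measured at 7.80 and 7.24 at 0 h and 7.81 and 7.56 at 24 h, and the sign of its difference turned without replicate 2 of 0 h (-0.12). MLXIPL straddled the dim line at both times, with 5.97 and 5.69 at 0 h and 5.48 and 5.89 at 24 h. It lay above the negative control level on no array. The values of the times overlapped for all 3. MGA and MLXIPL, and the genes said below to be so, are named after their values were seen.

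The 3 genes listed as targets of MondoA and ChREBP, all arrestin domain proteins, did not move together. ARRDC3 rose, from 10.43 and 11.24 at 0 h to 13.18 and 12.98 at 24 h, a log2 fold change of 2.25 (SE 0.36, limma adjusted p 0.023). ARRDC4, a regulator of glucose uptake (named after its values were known), was measured at 8.54 and 7.78 at 0 h and 10.02 and 9.65 at 24 h (log2 fold change 1.68, limma adjusted p 0.071). TXNIP, which encodes the thioredoxin-binding brake on glucose uptake and is also named after its values were seen, was measured at 12.74 and 12.55 at 0 h and 10.79 and 11.46 at 24 h (log2 fold change -1.52, limma adjusted p 0.084). The 2 times did not overlap for any of the 3, with ARRDC3 and ARRDC4 higher and TXNIP lower, and with the trend and robust variance model all 3 were called in these directions. The call of ARRDC3 did not hold without replicate 1 of 0 h (log2 fold change 1.84, adjusted p = 0.13) or without replicate 2 of 0 h (2.65, adjusted p = 0.058).

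Among the proteins through which the network acts on chromatin, 0 of 11 measured coactivators and partners of MYC were called by limma. Of the 7 measured genes listed as corepressors of MXD, MNT and MIZ1, 0 were called. That list also holds ZBTB17, the gene of MIZ1 itself, named after its values were seen. At an unadjusted p under 0.05, 1 of the coactivators and 2 of the corepressors were lower and none was higher, where 6.62% of all probe sets were lower and 6.28% higher, so that the count of the coactivators was near the background. ACTL6A, the actin-like subunit of the TIP60 and BAF complexes, had the largest difference of the coactivators, from 12.01 and 11.72 at 0 h to 10.61 and 11.13 at 24 h (log2 fold change -0.9996, limma adjusted p 0.24). The median log2 fold change of the coactivators was -0.14, near that of all probe sets. SAP30, a subunit of the SIN3 complex that MXD proteins recruit, was measured at 9.12 and 9.54 at 0 h and 8.83 and 7.80 at 24 h (log2 fold change -1.02, limma adjusted p 0.31). Its change was -0.50 without replicate 2 of 24 h and -1.54 without replicate 1 of 24 h. SIN3B, one of the SIN3 scaffolds and named after its values were seen, was under the dim line on every array, while SIN3A, named likewise, lay above it in all 4, with a log2 fold change of -0.16 (limma adjusted p 0.89).

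Of 18 genes that control how long MYC protein lasts, 16 were measured and 0 were called by limma, and the unadjusted p was under 0.05 for 2, both lower, against 6.62% of all probe sets. SKP2, an F-box protein that both ubiquitinates MYC and acts as its coactivator, had the largest difference. It was measured at 13.09 and 13.00 at 0 h and at 12.05 and 12.09 at 24 h, a narrow spread at each time (log2 fold change -0.98, SE 0.31, limma adjusted p 0.21). FBXW7, the F-box protein that recognizes phosphorylated MYC and is named after its values were seen, had a log2 fold change of 0.04 (limma adjusted p 0.97). The median of the list was 0.02.

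The list of genes that MYC is known to activate held 36 genes, of which 28 were measured, all above the dim line in all 4 arrays. None was called by limma. The unadjusted p was under 0.05 for 7, all of them lower, against 6.62% of all probe sets, and 23 had a fitted change below 0, as 55.1% of all probe sets had. Both arrays at 24 h lay below both at 0 h for 15 of the 28 and above them for 0, against 24.9% and 18.8% of all probe sets. These shares cover dim probe sets too, since 11491 of all 20893 had a mean above the dim line. No such share was taken over the brighter probe sets alone. The median log2 fold change was -0.28, against -0.06 over all probe sets, and the changes ran from -1.55 to 0.65. Several of the 28 serve ribosome production, so their values are shared with that process.

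CCND2, the D-type cyclin that drives G1, had the largest difference among them, from 13.88 and 13.79 at 0 h to 11.92 and 12.65 at 24 h (log2 fold change -1.55, SE 0.35, limma adjusted p 0.083). It passed the threshold with a trend and robust variance model (adjusted p = 0.011) and without replicate 2 of 24 h (adjusted p = 0.018). Without each of the other arrays it did not, with adjusted p of 0.24 and 0.20 without replicates 1 and 2 of 0 h and 0.44 without replicate 1 of 24 h (log2 fold change -1.18). The ribosome assembly factors RRS1 and NOP16 and the mitochondrial transcription factor TFB2M, named after their values were seen, had log2 fold changes of -1.49, -1.45 and -1.41, with limma adjusted p of 0.065, 0.091 and 0.097. Other genes of the same list stayed near their level at 0 h: nucleolin (NCL), nucleophosmin (NPM1) and CDK4, also named after their values were seen, had log2 fold changes of -0.12, -0.07 and -0.12. With the trend and robust variance model 5 of the 28 were called lower, with the filter at the negative control level 4, and without replicate 2 of 24 h 1.

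Of 12 genes that MYC is known to repress, 10 were measured. Limma called 1 of them higher and 0 lower, where 0.823% of all probe sets were called higher and 0.12% lower. That gene was CDKN1A, which encodes the cyclin-dependent kinase inhibitor p21. It lay below the dim line in both arrays at 0 h, at 4.22 and 5.21, and above it in both at 24 h, at 8.54 and 7.78, at least 5.51-fold higher with the values at 0 h raised to the dim line and at least 1.52-fold higher against the negative control level (limma adjusted p 0.0056). The call held without each array in turn apart from replicate 1 of 0 h, without which the adjusted p was 0.078. The unadjusted p was under 0.05 for 3 of the 10, all of them higher, against 6.28% of all probe sets. Both arrays at 24 h lay above both at 0 h for 7, against 18.8%, and below them for 1, against 24.9%. Of the 7 higher, CEBPA lay below the dim line on all 4 arrays, and NDRG1 and GADD45B lay above the negative control level on none. They are named after their values were seen, as is CDKN2B, which is also among the 10. CDKN2B was measured at 6.39 and 6.77 at 0 h and 6.87 and 6.73 at 24 h. These values lie above the dim line but below the negative control level, so its place among the 10 does not show that it was transcribed. GADD45A, a growth arrest and DNA damage gene (named after its values were known), was measured at 10.83 and 10.95 at 0 h and 11.95 and 12.08 at 24 h (log2 fold change 1.13, limma adjusted p 0.15). The median log2 fold change of the 10 was 0.35.

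**Figure D3:**
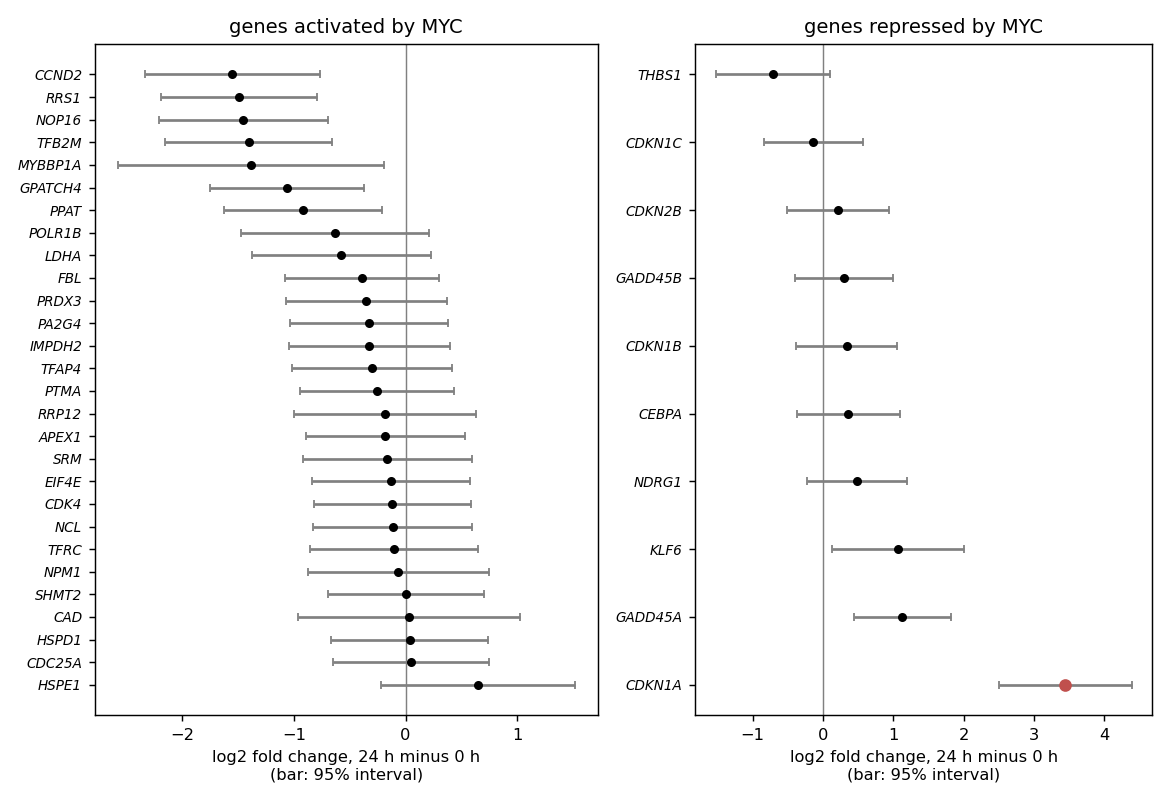
Log2 fold change, 24 h minus 0 h, of the 28 measured genes listed as activated by MYC and the 10 listed as repressed by it, each with its 95% interval, not adjusted for the number of genes. The red point, CDKN1A, was called by limma, and its fitted change is no bound because it lay below the dim line at 0 h. CCND2, RRS1, NOP16 and TFB2M stand at the low end of the activated genes.

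The E-box is read by other basic helix-loop-helix leucine zipper factors too, and 0 of 8 of these were called by limma, and the unadjusted p was under 0.05 for 2, both higher, against 6.28% of all probe sets. TFE3, a regulator of lysosome genes, had the largest difference, from 7.47 and 7.14 at 0 h to 8.76 and 8.24 at 24 h (log2 fold change 1.19, SE 0.34, limma adjusted p 0.16). Both arrays of TFE3 at 0 h lay above the dim line but below the negative control level, so the size of its change is uncertain. USF2, named after its values were seen, was measured at 8.945 and 8.996 at 0 h and 10.19 and 10.05 at 24 h (log2 fold change 1.15, limma adjusted p 0.14). The arrays of the 2 times did not overlap for either gene. TFEB and TFEC, relatives of TFE3 also named after their values were seen, were under the dim line on all 4.

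**Figure D4:**
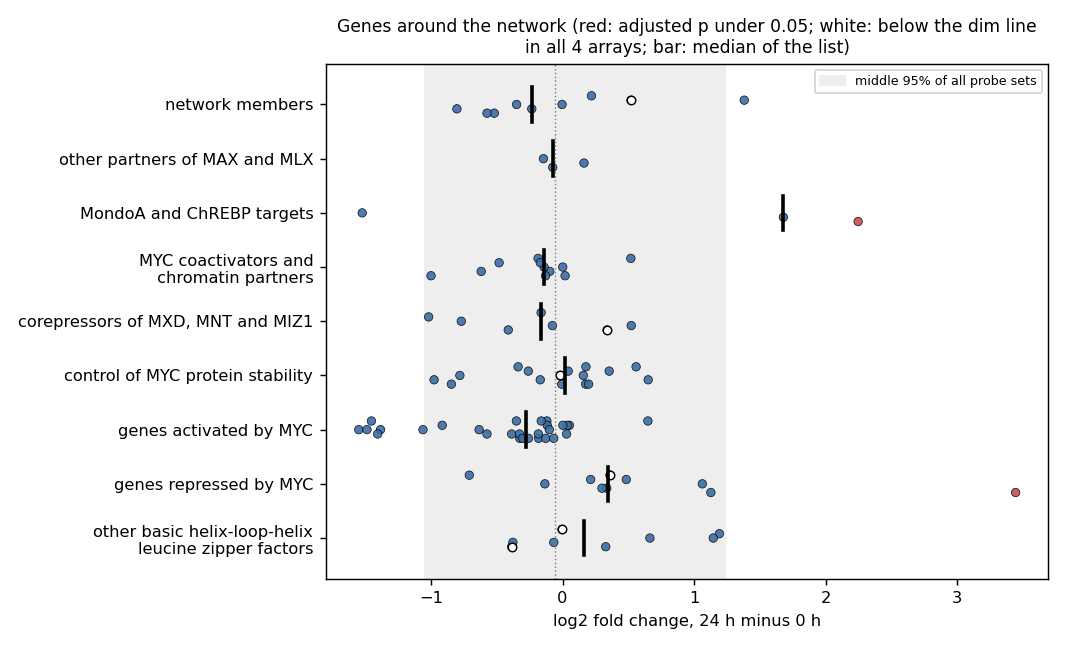
Log2 fold change, 24 h minus 0 h, of each measured gene of the network and of 8 lists around it. Each point is a gene, red where called by limma, white where below the dim line in all 4 arrays, the bar is the median of a list, and the grey band holds the middle 95% of all probe sets. The called genes are ARRDC3 and CDKN1A, and MXD1 is the network member to the right of the band.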

How the data were processed

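The 4 Clariom S arrays were grouped by the hemin treatment in their labels. The authors deposited log2 values, made with RMA in Affymetrix Expression Console (background correction, log2, quantile normalization), and tested them in Partek. Tool versions and the build behind the array: not given in the sources used here. Of 24351 rows, 2903 controls and 555 unmapped transcripts were left out. Gene symbols came from the platform annotation at GEO, updated through RefSeq: 17705 probe sets had 1 symbol, 0 several, and 3188 are unnamed here.

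A linear model of time alone was fitted in R 4.3.3 with limma 3.58.1 and moderated with eBayes (two-sided, prior with 7.47 degrees of freedom), adjusted over all 20893 probe sets. The test was checked on simulated data. A permutation test used scipy 1.17.1. An array has no read depth, and the number of arrays limits the precision.

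The members and lists were chosen with earlier results of these data known. Genes named were all members, in each list up to 4 called genes with the largest change or else the 1 with the largest difference above the dim line, and the 3 genes nearest to the member with the smallest p, over 4 arrays; others are said to be named after their values were seen. Alternatives were leaving out each array, 2 normalizations, other variance models and weights, a replicate block, the ANOVA of the methods, other thresholds, a filter on dim probe sets and the use of 1 per gene. A filter at the negative control level was added after seeing the data.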

Additional observations from a re-analysis of the deposited data

How the results depend on the processing

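Of 139 values of the members' changes over 16 alternatives, 129 kept their direction and side of the threshold, 6 turned in sign and 4 gained a call, and since limma called no member, none could lose a call. Only the normalizations and leaving out an array altered the fitted changes of the members, so a sign could turn in these alone. A minimum size of change could not add a call. MXD1 was called with the trend and robust variance model, the methods' ANOVA without adjustment, a threshold of 0.10 and a filter on the level of negative controls, each giving 1 member called higher, and 0 members were called lower in every alternative. MYCL, at the dim line, turned to 0.048 with another quantile normalization and to 0.014 with median centring, and without each array it ran from -0.58 to 0.57, above 0 without replicate 1 of 0 h (0.11) or of 24 h. MXD3 ran from -0.054 to 0.49, below 0 without replicate 1 of 0 h or replicate 2 of 24 h (-0.052), and MLXIP from -0.12, without replicate 2 of 0 h, to 0.45. The cause was not tested.

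Over all probe sets, 172 were called higher and 25 lower. These counts were 387 and 159 with the trend and robust variance model, 308 and 110 at the threshold of 0.10, 337 and 158 with the filter at the negative control level, 859 and 1071 by the methods' ANOVA without adjustment, and 0 and 0 with it. The lower calls were 47 with median centring, 63 with the filter on dim probe sets and 57 with 1 probe set per gene. Leaving out each array gave 27 to 304 higher and 0 to 88 lower calls, fewest without replicate 1 of 0 h and most without replicate 2 of 24 h. With the replicate number as a block they were 319 and 110, and MXD1 had an adjusted p of 0.061. The block called all 3 targets of MondoA and ChREBP, ARRDC4 higher and TXNIP lower beside ARRDC3, 2 genes activated by MYC (CCND2 with an adjusted p of 0.043) and 1 marker of other blood cells, these lower, and left the other counts of calls as they were. The numbers were not taken as pairs, since the methods name no such block. The deviations of same-numbered arrays correlated at r = -0.0032 across all probe sets and at r = 0.088 across those above the dim line. MYCN, below the dim line on every array, has no measured level, and MYCL was above it on 1 array of each time.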

Other observations

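Over the 4 arrays, the genes whose centred log2 values lay nearest to those of MXD1, among 10406 genes above the dim line, were COPG1, CREBRF and SHTN1. The Euclidean distances were 0.05, 0.06 and 0.08 on the log2 scale. COPG1, a subunit of the COPI vesicle coat, was measured at 10.41 and 10.15 at 0 h and 11.82 and 11.57 at 24 h. CREBRF, a regulator of CREB3 factors, was measured at 5.71 and 5.45 at 0 h, about the dim line, and at 7.14 and 6.89 at 24 h. SHTN1, which encodes the cytoskeletal protein shootin, was measured at 10.68 and 10.34 at 0 h and 12.01 and 11.73 at 24 h. None of the 3 was called by limma, with adjusted p of 0.080, 0.076 and 0.10. With 4 arrays such closeness is a description of these values only.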
